A study of Homo sapiens with 12 samples.

Results

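The 10 genes described here are markers of astrocytes and of their reactive state: the intermediate filament genes GFAP, VIM (vimentin), NES (nestin) and SYNM (synemin), the secreted proteins SERPINA3 and CLU (clusterin), the glutamate handling genes SLC1A3 and GLUL, the hyaluronan receptor gene CD44, and the transcription factor gene SOX9. They were chosen by name, with earlier results of these data known, and all 10 were found among the 36963 genes of the gene tables. RNA came from U251-MG, a human astrocytoma cell line that the labels call an astrocyte. Control cells were kept in MEM with 2% fetal bovine serum, and treated cells received 100 µM manganese chloride, also at 2% serum. Poly(A) RNA isolated from a small fraction of each lysate served as input, and what remained was immunoprecipitated (IP) with an antibody to YTHDF2, a protein that reads N6-methyladenosine in mRNA and is known to promote mRNA decay. Control input, manganese input, control IP and manganese IP held 3 libraries each. All 12 libraries came from 1 established tumour line, the time of exposure is not given, no IP with a control antibody is named, and nothing says whether replicates were separate cultures, so the p-values reflect nothing beyond the spread among the libraries of a group, which may be technical.

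Intermediate filament proteins form the flexible part of the cytoskeleton. GFAP is the classical filament protein of mature astrocytes, vimentin and nestin are typical of immature and of reactive ones, and synemin co-assembles with them. Reactive astrocytes in injured brain are known to raise GFAP, vimentin, nestin, CD44 and SERPINA3. Astrocytes take up glutamate through the transporter encoded by SLC1A3 and turn it into glutamine with glutamine synthetase, the product of GLUL, an enzyme that needs a divalent metal and is known to bind manganese. The transcription factor SOX9 sets and keeps glial fate.

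Estimated counts assigned to genes ran from 16683984 to 28425552 per library, and 1 gene, PCGF6, took 34.3% to 41.8% of them. Control IP 3 stood apart, with 56.88% of its fragments aligned against 83.7% to 87.12% in the other libraries. Correlations of log2 levels between libraries of a group lay between 0.880 and 0.968, and control input 1, control IP 3 and manganese IP 3 had been singled out in earlier work on these data, so where a call changes without those 3, or without control IP 3 alone, that value is given too. Levels below are counts normalised to library size (CPM) and scaled by TMM factors, and log2 changes with their standard errors (SE) come from the quasi-likelihood F test in edgeR, with p-values adjusted by Benjamini-Hochberg over 14804 genes, called at an adjusted p under 0.05. Of the markers of other brain cells, 3 of 13 neuronal genes (RBFOX3, STMN2 and ELAVL4), 2 of 12 oligodendrocyte lineage genes (MAG and SOX10) and 7 of 12 microglia and macrophage genes (AIF1 and CX3CR1 among them) were listed at 0 in all libraries, and 4, 4 and 9 stayed under 1 CPM throughout. The other neuronal and oligodendrocyte lineage genes reached at least 1 CPM in some library, with summed levels in control input of 25 to 39.0 and 68.2 to 82.6 TPM. Of 20 astrocyte identity genes other than the members, AQP4 and GJB6 were also listed at 0 and ALDH1L1 stayed under 1 CPM. The rest of that list, S100B among them, reached at least 1 CPM in some library. The labelled cell type is thus met by part of its markers, with GFAP and SOX9 present, but not by those 3 markers of mature astrocytes.

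On a scale corrected for transcript length (TPM), VIM was the most abundant of the 10 genes in every group. In control input the mean VIM level was 1171 ± 34.1 TPM (SD, n = 3), followed by GFAP at 429 ± 59.9 TPM, which was rank 108 among all genes, and CD44 at 139 ± 28.4 TPM. GLUL (87.5 ± 14.3 TPM), SOX9 (55.4 ± 2.38 TPM), NES (51.5 ± 6.02 TPM) and CLU (43.7 ± 12.2 TPM) came next, and in this run of neighbours SOX9, NES and CLU did not differ beyond their spread. SLC1A3, SERPINA3 and SYNM were lowest, at 13.0 ± 4.87, 12.8 ± 3.30 and 9.46 ± 1.51 TPM, and could not be ordered. In manganese input GFAP dropped to the fifth place at 37.8 ± 2.23 TPM, rank 1173 among all genes, level with SERPINA3 at 36.6 ± 0.267 TPM and GLUL at 34.7 ± 2.38 TPM. CD44 (313 ± 33.0 TPM), NES (141 ± 2.86 TPM) and CLU (100.0 ± 15 TPM) then followed VIM (1060 ± 43.4 TPM). SOX9 stood at 26.4 ± 0.980 TPM, SYNM at 8.56 ± 0.388 TPM and SLC1A3 at 8.30 ± 0.673 TPM, the last 2 without a difference beyond their spread. In control IP the order was VIM (1057 ± 134 TPM), GFAP (340 ± 64.4 TPM), CD44 (109 ± 33.0 TPM), GLUL (81.7 ± 10.0 TPM), NES (65.4 ± 5.23 TPM) and SOX9 (55.2 ± 6.22 TPM), with CLU, SYNM, SLC1A3 and SERPINA3 between 9.90 and 6.65 TPM and not separable. There CD44 and GLUL overlapped, as did NES and SOX9. In manganese IP VIM (731 ± 138 TPM) was followed by NES (340 ± 4.65 TPM), CD44 (135 ± 13.5 TPM), GFAP (96.1 ± 11.9 TPM) and CLU (69.6 ± 10.9 TPM), then GLUL (22.3 ± 0.792 TPM), SOX9 (18.8 ± 1.53 TPM), SERPINA3 (16.9 ± 1.89 TPM), SYNM (6.34 ± 0.147 TPM) and SLC1A3 (1.38 ± 0.172 TPM), where of these neighbours only SOX9 and SERPINA3 overlapped. The plot of levels shows each library.

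**Figure D1:**
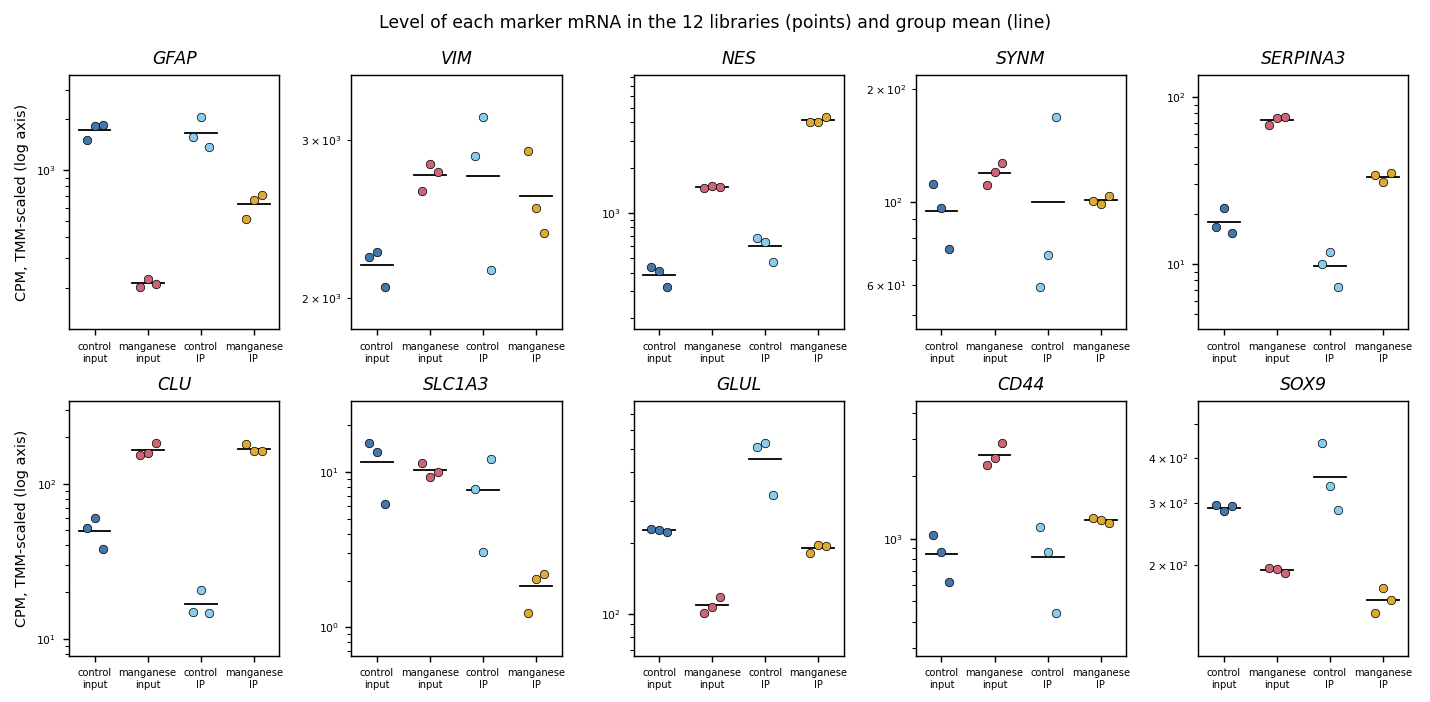
Level of each of the 10 genes in CPM scaled by TMM factors (log axis), 1 point per library and a bar at each group's mean, for control input, manganese input, control IP and manganese IP (3 libraries each). GFAP falls from about 1733 to 214 CPM between control and manganese input, while NES, SERPINA3, CLU and CD44 lie higher in manganese input.

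The first comparison asked how the RNA of the cells differed with manganese, input against input. GFAP fell 8.09-fold while NES, SERPINA3, CLU and CD44 rose by 2.99-fold to 4.06-fold, and GLUL and SOX9 fell. VIM, SYNM and SLC1A3 were not called. So 4 members rose and 3 fell of 10, against a background of 11.3% of all tested genes called higher and 3.63% called lower (15% either way). The members were chosen with earlier results known, so an excess over this background may be partly fixed by the choice and is no test. The median of the members was 0.34 on the log2 scale and their median absolute change 1.32, beside -0.04 and 0.52 over all tested genes. The comparisons below share libraries with this one. How many of all tested genes separate by group was not counted, so a lack of overlap between libraries is only described, here and below. These are bulk measurements, in which fewer cells that express a gene and less RNA per cell cannot be told apart.

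Among the filament genes, GFAP stood at 1516, 1834 and 1849 CPM in the 3 control inputs and at 203, 227 and 212 CPM in the manganese inputs. All 3 manganese libraries lay far below all control libraries. The log2 change was -3.02 ± 0.20 (adjusted p = 6.2e-07), the 176th lowest of 14804 genes. NES went the other way, from 435, 409 and 322 CPM to 1455, 1508 and 1494 CPM, and the groups did not overlap. Its log2 change was 1.93 ± 0.18 (adjusted p = 8.03e-06), a 3.82-fold rise. VIM read 2224, 2254 and 2059 CPM without manganese and 2634, 2821 and 2769 CPM with it. The VIM libraries separated by group, but the log2 difference of 0.33 ± 0.16 was not called (adjusted p = 0.237). It turned to -0.12 with total counts as the scaling and to -0.14 on log2(TPM + 1). Leaving out the 3 libraries that stand apart gave 0.35 with a call (adjusted p = 0.0198). Of 25 alternatives for VIM here, 3 gained a call in the same direction and 3 turned sign. SYNM was 111, 96.5 and 75.2 CPM against 111, 120 and 127 CPM, with overlap at the top control library, and its log2 difference of 0.34 ± 0.30 was not called (adjusted p = 0.583), turned to -0.10 with total counts and to -0.12 on log2(TPM + 1), and without those 3 libraries was 0.48 with a call (adjusted p = 0.0256).

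Of the secreted proteins, SERPINA3, a protease inhibitor known as an acute phase protein, rose from 16.8, 21.8 and 15.2 CPM to 68.1, 74.5 and 76.0 CPM (log2 change 2.02 ± 0.21, adjusted p = 2.06e-05). CLU, an extracellular chaperone, rose from 51.4, 59.6 and 38.0 CPM to 154, 157 and 182 CPM (log2 change 1.73 ± 0.19, adjusted p = 4.15e-05). In both genes every manganese input lay above every control input. CD44 rose from 1040, 862 and 620 CPM to 2241, 2440 and 2861 CPM (log2 change 1.58 ± 0.29, adjusted p = 0.00171), again without overlap, although the control libraries spread widely.

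Glutamate handling was not of 1 kind. GLUL read 228, 225 and 223 CPM in the control inputs and 101, 107 and 118 CPM in the manganese inputs, a log2 change of -1.06 ± 0.18 (adjusted p = 0.00116). The transporter gene SLC1A3 read 15.3, 13.5 and 6.22 CPM against 11.4, 9.32 and 9.99 CPM, with the manganese libraries inside the control range. Its log2 difference of -0.19 ± 0.47 was not called (adjusted p = 0.88), and without control input 1 it was 0.05. SOX9 fell from 295, 284 and 293 CPM to 196, 195 and 190 CPM, a log2 change of -0.58 ± 0.16 (adjusted p = 0.0264). The SOX9 call was lost without any 1 of the control inputs (adjusted p 0.0767 to 0.0838) and with no filter on low counts (adjusted p = 0.0574), and the change grew to -1.03 with total counts and to -1.04 on log2(TPM + 1).

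The scaling bears on all of these values. TMM factors were 1.22 to 1.32 in the control inputs and 0.909 to 0.942 in the manganese inputs. With total counts in place of TMM the median change of all tested genes moved from -0.04 to -0.49, and the calls over all genes from 1678 higher and 537 lower to 1122 higher and 2621 lower. The 7 members called above kept their direction and their call under total counts, with GFAP at -3.47, NES at 1.49, SERPINA3 at 1.57, CLU at 1.28, CD44 at 1.14, GLUL at -1.51 and SOX9 at -1.03 on the log2 scale.

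**Figure D2:**
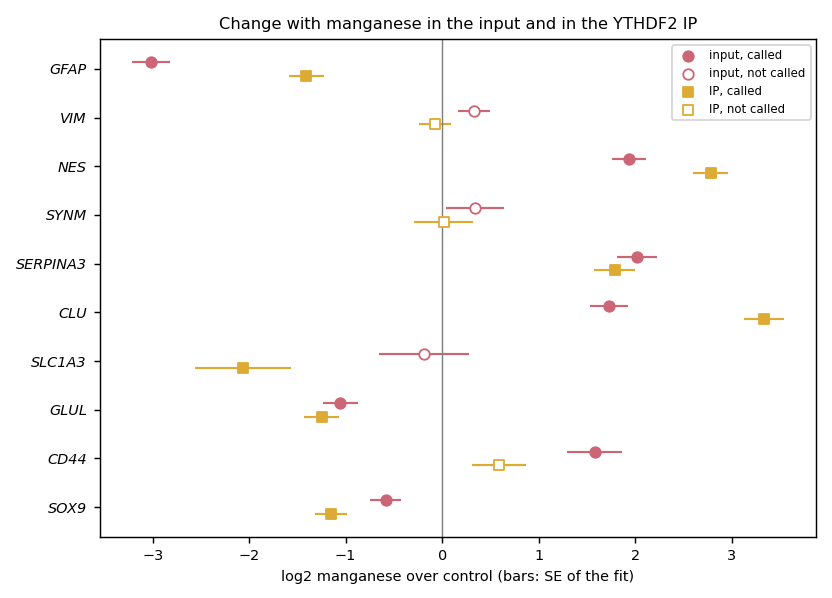
Log2 change with manganese for each of the 10 genes in input RNA and in IP RNA (edgeR, bars of 1 SE), filled where the adjusted p was under 0.05. For GFAP the input value is -3.02 and the IP value -1.41, and for NES 1.93 and 2.78.

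Set against other genes of the same biology, 11 of the 23 tested genes on a list of 30 further reactive astrocyte genes rose in the manganese input and the other 12 were not called, with a median log2 change of 1.10. They included PTX3, a pattern recognition protein, from 3.07 ± 1.62 to 52.6 ± 4.33 CPM (log2 change 4.11 ± 0.33, adjusted p = 3.31e-06), the oncostatin M receptor gene OSMR (2.58 ± 0.22), CD109 (1.96 ± 0.18) and TIMP1, an inhibitor of metalloproteinases (1.90 ± 0.25). Of 18 tested genes among 20 further astrocyte identity genes, 3 rose and 3 fell. The gap junction gene GJA1 (1.84 ± 0.32) and MLC1 (0.70 ± 0.18) rose, and the calcium-binding protein gene S100B (-1.71 ± 0.36) and the transcription factor gene NFIB (-0.84 ± 0.18) fell. Among 11 tested genes for other intermediate filaments and their linkers, only PLEC, which encodes the linker plectin, rose (1.45 ± 0.46, adjusted p = 0.0486).

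The partners of the members moved as well. Of 24 genes for glutamate and glutamine handling, hyaluronan and CD44 biology and SOX factors, 9 rose and 1 fell. The neutral amino acid transporter gene SLC1A5, whose product carries glutamine, rose from 39.7 ± 2.11 to 440 ± 45.7 CPM (log2 change 3.47 ± 0.20, adjusted p = 2.58e-07). The neuronal-type glutamate transporter gene SLC1A1 (2.93 ± 0.32), the hyaluronan synthase gene HAS3 (2.55 ± 0.18) and the membrane metalloproteinase gene MMP14, whose product is known to cleave CD44 (2.53 ± 0.21), rose too. SOX4, a transcription factor gene of the same family as SOX9, fell (-1.17), a gene named here after its value was seen as the only partner that fell. Over all tested genes 11.3% were called higher, and no test of the lists themselves was made. The lists, like the members, were chosen with earlier results of these data known.

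Markers of other cells were looked at beside these changes. The summed level of 12 microglia and macrophage genes was 2.4 to 4.0 TPM in control inputs and 12.5 to 14.6 TPM in manganese inputs, with CD68, a lysosomal protein gene, at 41.7 ± 2.00 CPM against 6.08 ± 1.94 CPM (log2 change 2.78 ± 0.27, adjusted p = 1.55e-05) while 9 of the 12, PTPRC, ITGAM and AIF1 among them, stayed under 1 CPM everywhere. The summed level of 12 oligodendrocyte lineage genes was 68.2 to 82.6 TPM in control inputs and 27.5 to 32.2 TPM in manganese inputs, and that of 13 neuronal genes 25 to 39.0 against 29.6 to 33.7 TPM. Sums of TPM carry no TMM scaling, and on log2(TPM + 0.1) the median of all tested genes changed by -0.44 here. In the edgeR fit the 8 tested oligodendrocyte lineage genes had a median log2 change of 0.64, with 0 called higher and 1 lower. The summed level of epithelial and endothelial genes was 2.8 to 3.6 against 4.0 to 4.4 TPM. Called among them were the microtubule protein gene MAP2 (-1.01 ± 0.24) and the myelin enzyme gene CNP (-0.58 ± 0.18), which fell, and the endothelial genes KDR (1.24 ± 0.33) and CDH5 (0.80 ± 0.24), which rose. The part of these genes in the members' changes was not tested.

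The makeup of the filament mRNA pool shows the GFAP and NES changes together. As a share of the summed TPM of GFAP, VIM, NES and SYNM, GFAP was 25.8% ± 2.78 (SD, n = 3) in control input and 3.03% ± 0.065 in manganese input. NES was 3.10% ± 0.432 and 11.3% ± 0.215, and VIM 70.5% ± 2.25 and 85% ± 0.180. In the IP, GFAP held 23.0% ± 1.52 without manganese and 8.32% ± 1.82 with it, NES 4.50% ± 0.707 and 29.2% ± 3.13, and VIM 71.9% ± 1.17 and 61.9% ± 4.91. VIM thus held a larger share of the pool with manganese in the input and a smaller one in the IP, while its own mean level without and with manganese was 1171 and 1060 TPM in the input and 1057 and 731 TPM in the IP. SYNM stayed under 1.1% in every library, its highest share being 1.08% in control IP 3. The summed level of the 4 genes was 1662 ± 72.0 TPM in control input, 1248 ± 48.4 in manganese input, 1471 ± 197 in control IP and 1174 ± 130 in manganese IP. TPM carries no TMM scaling, and on log2(TPM + 0.1) the median of all tested genes changed by -0.44 in the input and -0.38 in the IP. The mean sums were lower with manganese in both fractions, but no sum with TMM scaling was made. Whether the filament pool was smaller beyond that general shift was not tested. In CPM scaled by TMM factors, mean VIM was 2179 in control and 2741 in manganese input, and 2739 and 2602 in the IPs. In the input, the shares of GFAP, NES and VIM did not overlap between treatments. With 3 libraries against 3 an exact permutation test cannot go below p = 0.1, so the shares are given without one.

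**Figure D3:**
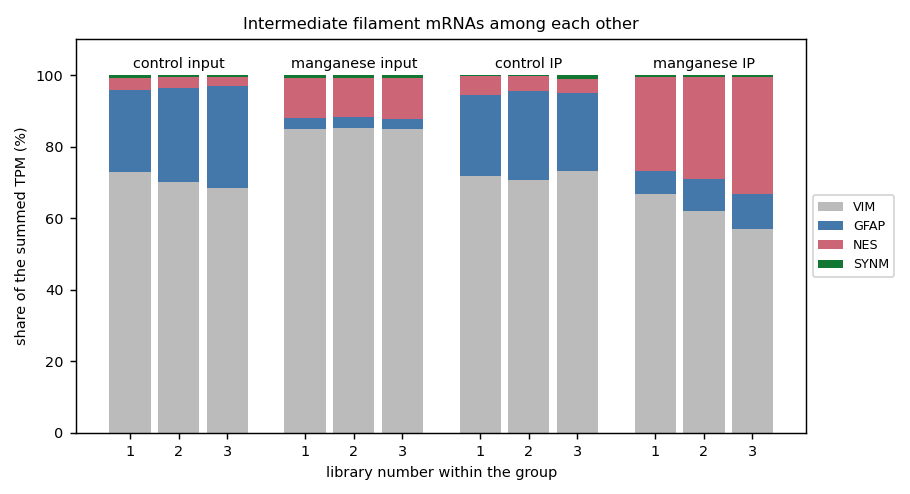
Share of GFAP, VIM, NES and SYNM in their summed TPM, in percent, 1 stacked bar per library of the 4 groups. GFAP takes 22.8% to 28.4% in the control inputs and 2.97% to 3.10% in the manganese inputs, and NES 26.4% to 32.6% in the manganese IPs.

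The second comparison asked the same of the RNA recovered with YTHDF2. In the IP, NES, SERPINA3 and CLU were higher with manganese, and GFAP, SLC1A3, GLUL and SOX9 were lower, so 3 members rose and 4 fell. Over all tested genes 20.4% were called higher and 22.5% lower (42.9% either way), so 7 of 10 called members stand beside a wide background. The members' median was -0.03 and their median absolute change 1.33, beside -0.09 and 1.03 for all tested genes.

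NES read 685, 644 and 471 CPM in control IP and 4009, 4027 and 4349 CPM in manganese IP, a 6.88-fold rise (log2 change 2.78 ± 0.18, adjusted p = 2.23e-07). CLU read 14.9, 20.5 and 14.6 CPM against 179, 163 and 162 CPM, a 10.1-fold rise (3.33 ± 0.21, adjusted p = 1.89e-07), the largest among the 10 genes in this comparison. SERPINA3 rose from 9.96, 11.8 and 7.30 CPM to 34.2, 30.8 and 35.2 CPM (1.79 ± 0.21, adjusted p = 2e-05). In all 3 genes the manganese libraries stood above every control library.

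GFAP fell in the IP from 1567, 2062 and 1373 CPM to 514, 665 and 707 CPM (log2 change -1.41 ± 0.19, adjusted p = 5.1e-05). The transporter gene SLC1A3 read 7.77, 3.07 and 12.2 CPM in control IP and 1.23, 2.06 and 2.21 CPM in manganese IP (-2.06 ± 0.49, adjusted p = 0.00426), low values whose call was lost with limma voom (-1.86, adjusted p = 0.0567). GLUL fell from 508, 527 and 317 CPM to 180, 196 and 193 CPM (-1.25 ± 0.18, adjusted p = 0.000114), and SOX9 from 441, 335 and 286 CPM to 146, 172 and 159 CPM (-1.15 ± 0.16, adjusted p = 9.59e-05). None of these 4 genes overlapped between the treatments in the IP, which adds no further support, as they were called on the same libraries.

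CD44 in the IP was 1133, 866 and 440 CPM without and 1262, 1221 and 1189 CPM with manganese. The groups separated, but control IP 3 lay far below the other control IPs, and the log2 difference of 0.59 ± 0.28 was not called (adjusted p = 0.109). It was called without control IP 1 (0.89, adjusted p = 0.00994), with a length correction (0.90, adjusted p = 0.0242) and with a filter of 1 CPM (0.65, adjusted p = 0.0498). VIM was 2880, 3186 and 2152 CPM against 2921, 2521 and 2364 CPM, overlapping and not called (-0.07 ± 0.16, adjusted p = 0.761). The VIM difference was called with total counts (-0.35, adjusted p = 0.0486) and on log2(TPM + 1) (-0.54, adjusted p = 0.0324), and without control IP 2 it was 0.05. SYNM was 59.4, 72.1 and 168 CPM against 100, 98.9 and 104 CPM, where control IP 3 alone lay above the manganese libraries. Its log2 difference was 0.02 ± 0.30 with that library and 0.62 without it (adjusted p = 0.976 and 0.00585). Without all 3 libraries that stand apart it was 0.60 (adjusted p = 0.00633), which takes the members called higher in the IP from 3 to 4.

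The wider lists in the IP moved in both directions, and their counts stand beside the 20.4% of all tested genes called higher and 22.5% lower, a share near which several of them lie. Of the 23 reactive genes tested 9 rose and 1 fell, led by TIMP1 (4.26 ± 0.28), PTX3 (4.06 ± 0.33), the small heat shock protein gene HSPB1 (3.72 ± 0.34) and the tetraspanin gene CD63 (2.99 ± 0.34). Of the 11 other filament and linker genes 4 rose and 2 fell, among them the lamin gene LMNA (1.98 ± 0.21), KRT18 (1.94 ± 0.28) and PLEC (2.78 ± 0.48), which rose, and SYNC (-1.22 ± 0.20), which fell. Of the 24 partners 8 rose and 5 fell, with SLC1A5 (3.99 ± 0.20), MMP14 (3.54 ± 0.22), SLC1A1 (2.76 ± 0.33) and HAS3 (1.79 ± 0.17) rising. Of 18 astrocyte identity genes 2 rose and 3 fell, MLC1 upward (1.70 ± 0.19) and NFIB (-1.42 ± 0.18), NFIA (-1.93 ± 0.47) and S100B (-1.43 ± 0.35) downward. The summed microglia and macrophage level was 1.7 to 2.1 TPM in control IP and 10.5 to 12.5 TPM in manganese IP, again with CD68 (log2 change 4.34 ± 0.30). The neuronal sum was 18.7 to 23.4 against 16.9 to 23.4 TPM, the oligodendrocyte lineage sum 34.5 to 86.1 against 30.0 to 35.0 TPM and the epithelial and endothelial sum 5.7 to 8.3 against 4.6 to 9.3 TPM. These sums carry no TMM scaling either, and in the edgeR fit the tested oligodendrocyte lineage genes had a median log2 change of 1.22. Of 7 neuronal genes tested 2 rose, GAP43 (2.55 ± 0.46) and TUBB3 (1.5 ± 0.49), and 2 fell, MAP2 (-1.11 ± 0.24) and SNAP25, at a mean of 0.720 CPM in control IP and listed at 0 in every manganese IP. Of 8 oligodendrocyte lineage genes tested OLIG2 (2.67 ± 0.60) and CNP (0.54 ± 0.18) rose and MBP (-1.37 ± 0.21) and PDGFRA (-2.06 ± 0.56) fell. The part of these genes in the members' changes was not tested.

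The third comparison set IP against input within each treatment, which measures how strongly an mRNA was recovered with YTHDF2 relative to its level in the lysate. Inputs were purified for poly(A) RNA before library preparation, and a like step is not named for the IP, so the ratio may also hold a difference in that step. In control cells NES and GLUL were called higher and SERPINA3 and CLU lower in the IP, 2 members each way, beside 17.2% of all tested genes called higher and 14.2% lower (31.3% either way). The members' median was 0.02 beside 0.04 for all tested genes.

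The NES ratio in control cells was 0.63 ± 0.17 on the log2 scale (adjusted p = 0.0124), with all 3 IPs above all inputs. This call was lost with total counts (0.30, adjusted p = 0.0808), on log2(TPM + 1) (0.34, adjusted p = 0.0518), with only the control libraries in the fit (0.48, adjusted p = 0.095) and without control input 3 (0.50, adjusted p = 0.072), and a correction for transcript length took it to -0.01. CLU was the member most depleted in control IP, with a log2 ratio of -1.57 ± 0.20 (adjusted p = 5.7e-05), a 2.98-fold difference. SERPINA3 was at -0.89 ± 0.21 (adjusted p = 0.0047), a call lost with the length correction (-0.51, adjusted p = 0.0734). GFAP showed no called difference, at -0.06 ± 0.18 (adjusted p = 0.861), and was 0.06 without control IP 3.

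For the other genes in control cells, VIM was at 0.33 ± 0.16 and SOX9 at 0.29 ± 0.16, neither called with all libraries (adjusted p = 0.151 and 0.211). Without control IP 3 both were called, VIM at 0.47 (adjusted p = 0.00257) and SOX9 at 0.42 (adjusted p = 0.0163), which takes the members called higher from 2 to 4. On log2(TPM + 1) VIM turned to -0.16 and SOX9 to -0.01, where the median of all tested genes was -0.15. CD44 was at -0.05 ± 0.28, and 0.25 without control IP 3. SLC1A3 was at -0.60 ± 0.47 and SYNM at 0.08 ± 0.30, with the SYNM ratio at -0.52 without control IP 3, and none of these 3 was called.

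In manganese-treated cells 3 members were called higher in the IP and 3 lower, beside 14.8% and 17.6% of all tested genes (32.4% either way). GFAP (1.55 ± 0.19, adjusted p = 5.15e-05) and NES (1.47 ± 0.17, adjusted p = 4.54e-05) were enriched 2.94-fold and 2.78-fold, and GLUL 1.75-fold (0.81 ± 0.18, adjusted p = 0.00399). SLC1A3 (-2.48 ± 0.50, adjusted p = 0.00202), SERPINA3 (-1.12 ± 0.20, adjusted p = 0.000931) and CD44 (-1.04 ± 0.28, adjusted p = 0.0127) were depleted. CLU (0.03 ± 0.19), VIM (-0.08 ± 0.16), SYNM (-0.24 ± 0.30) and SOX9 (-0.28 ± 0.16) were not called. The members' median was -0.16 and their median absolute ratio 0.92, beside -0.03 and 0.83. On log2(TPM + 1) the CLU ratio was -0.52, and 6 members were called lower in place of 3, with VIM (-0.55), SOX9 (-0.47) and GLUL (-0.61) added. That scale carries no TMM factors, and on it the median of all tested genes was -0.12, with 1533 called higher and 3077 lower. The main fit had 2187 higher and 2608 lower.

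The other lists split between enrichment and depletion, read against the shares of all tested genes just given. In control cells 2 of 23 reactive genes were enriched and 7 depleted, with HSPB1 (-3.04 ± 0.33), CRYAB (-2.40 ± 0.29), the annexin partner gene S100A10 (-2.05 ± 0.24) and TIMP1 (-2.04 ± 0.26) among the depleted. Of 11 filament and linker genes 1 was enriched, MACF1 (1.52 ± 0.49), and 3 depleted, KRT8 (-1.78 ± 0.35), KRT18 (-1.06 ± 0.27) and LMNA (-0.73 ± 0.20). Of 24 partners 9 were enriched and 2 depleted, with the ezrin family gene RDX (1.75 ± 0.26), HAS2 (1.58 ± 0.18), SOX4 (1.53 ± 0.25) and HAS3 (1.19 ± 0.17) enriched. Of 18 identity genes 4 were enriched and 2 depleted, the potassium channel gene KCNJ10 (2.39 ± 0.40) and NFIB (1.75 ± 0.18) upward and FABP7 (-1.52 ± 0.35) and SPARCL1 (-1.91 ± 0.51) downward. Of other cells' markers, MAP2 (1.45 ± 0.24), MBP (1.58 ± 0.21), CDH5 (1.51 ± 0.24) and KDR (1.37 ± 0.33) were enriched and TUBB3 (-1.91 ± 0.50), GAP43 (-1.52 ± 0.45) and CD68 (-1.60 ± 0.28) depleted.

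In manganese-treated cells 2 of the 23 reactive genes were enriched, among them the cytokine signalling inhibitor gene SOCS3 (1.03 ± 0.18), and 10 depleted, among them the matrix protein gene TNC (-2.43 ± 0.36), EMP1 (-1.88 ± 0.37) and TM4SF1 (-1.45 ± 0.23). Of 11 filament and linker genes PLEC (1.51 ± 0.46) and LMNA (1.18 ± 0.20) were enriched and LMNB1 (-1.12 ± 0.32) depleted. Of 24 partners 6 were enriched and 8 depleted, with MMP14 (1.58 ± 0.21) and SLC1A5 (1.53 ± 0.18) enriched and GLUD1 (-1.32 ± 0.15) and the glutamine transporter gene SLC38A2 (-3.77 ± 0.59) depleted. Of 18 identity genes 3 were called each way, KCNJ10 (1.63 ± 0.39), NFIB (1.17 ± 0.18) and MLC1 (0.91 ± 0.18) upward and SPARCL1 (-2.66 ± 0.53) downward among them. Of other cells' markers MAP2 (1.35 ± 0.24), CNP (0.77 ± 0.18), MBP (0.60 ± 0.21), CDH5 (0.77 ± 0.24) and the epithelial gene CLDN4 (1.94 ± 0.62) were enriched, and the part of these markers in the members' ratios was not tested.

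**Figure D4:**
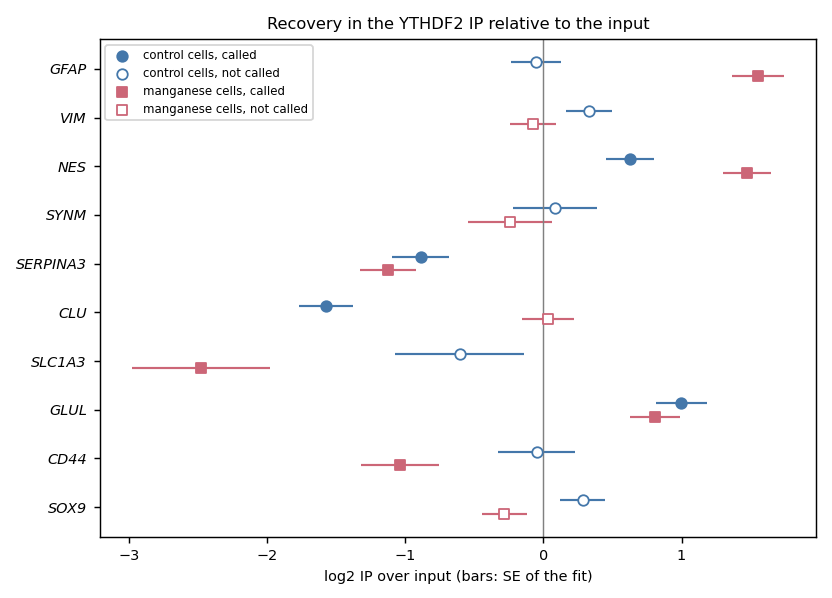
Log2 ratio of IP to input for each of the 10 genes in control and in manganese-treated cells (edgeR, bars of 1 SE), filled where the adjusted p was under 0.05. GFAP lies at -0.06 and 1.55, and CLU at -1.57 and 0.03.

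The GLUL ratio depended on the unit. As counts it was 1.00 ± 0.18 in control cells (adjusted p = 0.0009) and 0.81 in manganese-treated cells, but on log2(TPM + 1) it was -0.09 (not called, adjusted p = 0.683) and -0.61 (called lower, adjusted p = 0.0094). In TPM the GLUL levels were 71.0, 96.1 and 95.4 in control input and 71.8, 81.7 and 91.8 in control IP, which overlap, and 32.0, 35.4 and 36.6 in manganese input and 22.1, 23.2 and 21.7 in manganese IP, which do not. Part of the difference lies in the count that 1 TPM stands for, which follows the length of the transcripts to which a gene's reads were assigned. TPM also carries no TMM scaling. On log2(TPM + 1) the median ratio of all tested genes was -0.15 in control and -0.12 in manganese-treated cells. In the main fit it was 0.04 and -0.03. Relative to the median gene of each library, the log2 count per TPM of GLUL was 0.31, -0.13 and -0.06 in control input, -0.15, -0.23 and -0.17 in manganese input, 0.93, 0.92 and 0.32 in control IP and 0.97, 0.97 and 0.96 in manganese IP. Every IP library lay above every input library. From input to IP it moved by 0.69 in control and 1.15 in manganese-treated cells, rank 428 and 185 of 9892 genes. The other 9 members moved by -0.35 to 0.27. Which GLUL transcripts were counted is not analysed here, since transcripts are not paired with genes in the tables used. The 4 rows for GLUL pseudogenes reached at most 0.0263 TPM, and the antisense gene VIM-AS1 was listed at 0 in all libraries. The SOX9-AS1 row ran from 0.158 to 9.45 TPM and CD44-AS1 reached 1.24 TPM, and since the counting is not stated to use strand, their reads may not be fully separable from those of SOX9 and CD44 where they overlap.

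**Figure D5:**
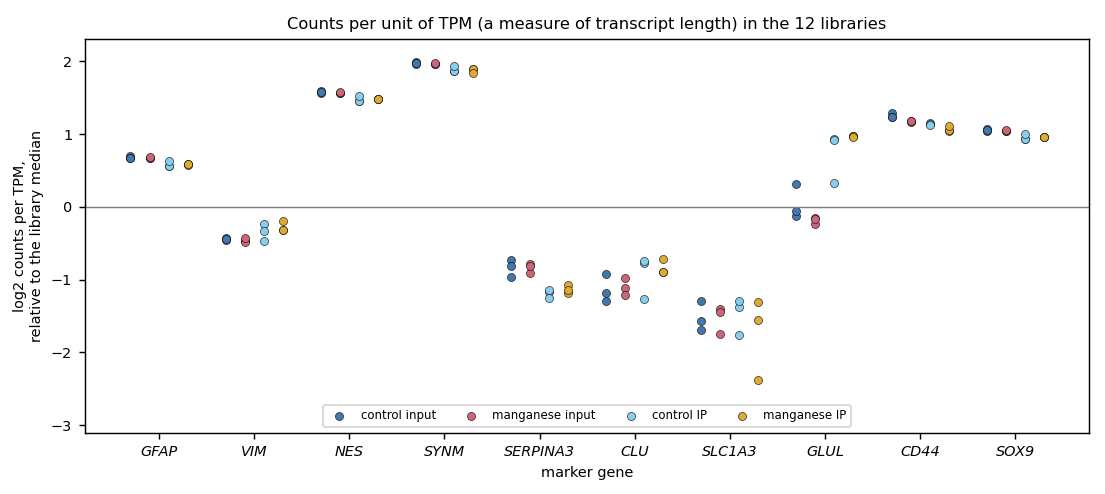
Log2 count per TPM of each of the 10 genes relative to the median gene of the same library, 1 point per library of the 4 groups. GLUL is at -0.23 to 0.31 in the inputs and at 0.32 to 0.97 in the IPs.

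The last comparison was the change of enrichment with manganese, that is the IP-to-input ratio in treated cells minus that in control cells, which equals the manganese change in the IP minus that in the input. GFAP, CLU and NES were called higher and the other 7 members were not called, beside 6.94% of all tested genes called higher and 10.2% lower (17.1% either way). The members' median was -0.28 and that of all tested genes -0.17, a median that was 0.00 with total counts.

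GFAP moved by 1.61 ± 0.26 (adjusted p = 0.00198), from 0.962-fold in control cells to 2.94-fold in treated cells. Taking each IP with the input of equal number, which names libraries and does not pair them, its log2 ratios were 0.05, 0.17 and -0.43 in control cells and 1.34, 1.55 and 1.74 in treated cells, which do not overlap. So GFAP mRNA was lower in both fractions with manganese, by 8.09-fold in the input and 2.65-fold in the IP. CLU also moved by 1.61 ± 0.27 (adjusted p = 0.00244), with log2 ratios of -1.78, -1.54 and -1.38 in control and 0.22, 0.05 and -0.17 in treated cells. Its level was higher in both fractions with manganese, by 3.31-fold in the input and 10.1-fold in the IP. NES moved by 0.85 ± 0.24 (adjusted p = 0.0283), from 0.65, 0.66 and 0.55 to 1.46, 1.42 and 1.54. The NES call was lost without control input 1 (adjusted p = 0.0692) or control input 2 (adjusted p = 0.0854) and with no filter on low counts (adjusted p = 0.0596). Leaving out the 3 libraries that stand apart gave 1.48 for GFAP, 1.52 for CLU and 0.57 for NES, all still called.

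The changes of SLC1A3 (-1.87 ± 0.67, adjusted p = 0.0733), CD44 (-0.99 ± 0.40, adjusted p = 0.105), SOX9 (-0.57 ± 0.23, adjusted p = 0.108) and VIM (-0.41 ± 0.23, adjusted p = 0.259) were below 0 but not called. Without control IP 3, the library with the low aligned share, CD44 (-1.29, adjusted p = 0.00193), SOX9 (-0.71, adjusted p = 0.00737) and VIM (-0.56, adjusted p = 0.0111) were called lower. SLC1A3 was called lower with DESeq2 (-1.83, adjusted p = 0.0463), with no filter on low counts (-1.86, adjusted p = 0.0465) and without control IP 2 (-2.26, adjusted p = 0.0197). SERPINA3 (-0.23 ± 0.29), GLUL (-0.19 ± 0.25) and SYNM (-0.32 ± 0.43) were not called.

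Of the other lists, beside 6.94% of all tested genes called higher and 10.2% lower, near which several of these counts lie, 3 of 11 filament and linker genes gained enrichment with manganese, LMNA (1.91 ± 0.29), KRT8 (1.56 ± 0.48) and KRT18 (1.54 ± 0.38), and 8 were not called. Of 23 reactive genes 4 gained and 3 lost, with HSPB1 (3.41 ± 0.44), TIMP1 (2.36 ± 0.35) and the lens and glial chaperone gene CRYAB (1.79 ± 0.39) gaining and the glycosyltransferase gene B3GNT5 (-2.60 ± 0.44) losing. Of 24 partners 1 gained, MMP14 (1.01 ± 0.29), and 4 lost, among them the hyaluronan synthase gene HAS2 (-1.53 ± 0.25), NOTCH2 (-1.18 ± 0.30) and the glutamate dehydrogenase gene GLUD1 (-0.88 ± 0.21). Among 18 identity genes GJA1 lost (-2.19 ± 0.44) and MLC1 gained (1.01 ± 0.26). Of other cells' markers CD68 (1.56 ± 0.37) and CNP (1.12 ± 0.26) gained and MBP (-0.97 ± 0.29) lost, and their part in the members' values was not tested.

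Across the 12 libraries, the genes whose log2 CPM followed each member most closely among 8983 genes with a mean of at least 5 CPM were taken as a description of pattern, since the libraries share groups, depth and scaling. For GFAP they were BFSP1 (r = 0.961), DAP (0.934) and RAB11FIP4 (0.926). For NES they were MMP14 (r = 0.996), CD47 (0.991) and IFFO2 (0.990), and for CLU CLPTM1 (0.994), FBLN1 (0.992) and MYDGF (0.992). SERPINA3 was closest to ALG9 (r = 0.987), CD44 to TOR1A (0.991), SOX9 to MYEF2 (0.990), GLUL to SOX4 (0.986), SLC1A3 to PRPF39 (0.954), SYNM to PTPRJ (0.931) and VIM to EIF4H (0.885). Among the 45 pairs of members, the 5 with the largest absolute r over the same 12 libraries were SERPINA3 with CLU (0.919), GFAP with SERPINA3 (-0.915), CLU with SOX9 (-0.914), SERPINA3 with GLUL (-0.908) and SERPINA3 with CD44 (0.899).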

How the data were processed

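RNA was sequenced as stranded mRNA libraries, per the labels' protocols. Per the submitters' processing notes kallisto and hg19 were used; how is not given in the sources used here. The authors deposited estimated counts per Ensembl gene, rounded to whole numbers, and the same genes as TPM; a deposited summary gives the percent of fragments aligned per library. Genes were matched by name in a deposited table. The counts were tested with edgeR 4.0.16 (R 4.3.3; quasi-likelihood F test, filterByExpr with a minimum count of 10 and minimum total of 15, TMM factors, 1 fit of 12 libraries with a mean per group, no pairing), with Benjamini-Hochberg adjustment over 14804 genes and a threshold of 0.05. The SE is the log2 change divided by the square root of F. Alternatives used DESeq2 1.42.0, limma 3.58.1, log2(TPM + 1), log2(TPM + 0.1), other scalings and filters, and left-out libraries. The 10 genes and all lists were chosen with earlier results of these data known. All 10 genes are named in every comparison, and of each list up to 4 called genes with the smallest p. The 3 genes with the highest Pearson r per member (log2 CPM, pseudocount 0.5) describe likeness. List genes NEFL and PECAM1 are not analysed here.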

Additional observations from a re-analysis of the deposited data

Results flagged for a closer look

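For 3 of the 10 genes the change with manganese differed between the IP and the input by the interaction term of the quasi-likelihood F test in edgeR, with p-values adjusted by Benjamini-Hochberg over all tested genes. For GFAP the change in the IP was higher by 1.61 ± 0.26 on the log2 scale (adjusted p = 0.00198), at -1.41 in the IP and -3.02 in the input. For CLU it was higher by 1.61 ± 0.27 (adjusted p = 0.00244), at 3.33 and 1.73. For NES it was higher by 0.85 ± 0.24 (adjusted p = 0.0283), at 2.78 and 1.93. In each of the 3 genes all 3 ratios of IP to input by library number were higher in treated than in control cells. The genes were picked by the interaction term on these same libraries, so this adds no further support. Over all tested genes 6.94% were called in this direction.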

How the results depend on the processing

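Of 1240 comparisons of a member's log2 value with an alternative, 1137 kept direction and side of the threshold. A further 57 turned sign, whether or not the call also changed. Of the values that kept their sign, 32 gained and 14 lost a call. The cause was not tested. The number of members called higher in control IP, 2 of 10, was 1 with total counts, 1 with the length correction, 1 with only the libraries compared, 0 on log2(TPM + 1) and on log2(TPM + 0.1), 4 without the 3 libraries that stand apart, and 1 (without control input 3) to 4 (without control IP 3) with 1 library left out. Members called lower in manganese IP against input, 3, were 6 on both TPM scales. Members called lower in the change of enrichment, 0 by edgeR (3 at an unadjusted p under 0.05), were 1 with no filter, 1 with DESeq2, 0 with limma voom, 1 with the replicate block, 3 without the 3 libraries that stand apart, and 0 to 3 with 1 library left out (1 without control IP 2, 3 without control IP 3).

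Values that turned sign were mostly of uncalled differences. With total counts these were, for control IP against input, SOX9 -0.051 and SYNM -0.16, for manganese IP against input CLU -0.12, for manganese input VIM -0.12 and SYNM -0.10, and for the manganese change in the IP SYNM -0.34. On log2(TPM + 1) and log2(TPM + 0.1) they were, for control IP against input, GLUL -0.091 and -0.092, SOX9 -0.0087 and -0.0089, SYNM -0.28 and -0.33, VIM -0.16 and -0.16, for manganese IP against input CLU -0.52 and -0.52 and GLUL -0.61 and -0.63, for manganese input SYNM -0.12 and -0.13 and VIM -0.14 and -0.14, and for the manganese change in the IP SYNM -0.22 and -0.23. The length correction turned NES (-0.015), SLC1A3 (0.036), SOX9 (-0.21) and SYNM (-0.76) in control IP against input and SYNM (0.24) in the change of enrichment. Not all SYNM values that turned sign in control IP against input stayed uncalled (smallest adjusted p over the alternatives 0.0174). In control IP against input SYNM was -0.063 with limma voom and -0.020 with only the libraries compared. SYNM in the manganese change in the IP was -0.017 with RLE size factors and -0.018 with DESeq2. VIM in manganese IP against input was 0.0040 without PCGF6 in the TMM and 0.052 with the filter of 1 CPM. Without the 3 libraries that stand apart CD44 was 0.43 and SYNM -0.39 in control IP against input, SLC1A3 0.055 in manganese input and SYNM 0.12 in the change of enrichment.

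With 1 library left out, values that turned ran from -0.37 to 0.25 (CD44), -0.24 to 0.062 (GFAP) and -0.52 to 0.40 (SYNM) in control IP against input, -0.13 to 0.028 (VIM) in manganese IP against input, -0.49 to 0.055 (SLC1A3) in manganese input, -0.33 to 0.62 (SYNM) and -0.22 to 0.047 (VIM) in the manganese change in the IP, and -0.60 to 0.28 (SYNM) in the change of enrichment.

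The labels do not say whether libraries of equal number share a lysate, so numbers were not used as pairs in the main fit. Deviations of same-numbered libraries correlated at -0.00065 to 0.066 between input and IP and at -0.121 to 0.047 between treatments. Such low values cannot show that the lysates were separate. With the replicate block the SYNM ratio in control IP against input was -0.068 and CD44 was called lower in the change of enrichment (-0.91, adjusted p = 0.0318). Depth limits SLC1A3, at 1.23 to 2.21 CPM in manganese IP, and total counts moved the median of all genes in the IP from -0.09 to -0.37, in control enrichment from 0.04 to -0.26 and in manganese enrichment from -0.03 to -0.18. With total counts 35.6% of calls in control enrichment were higher, against 54.8%, in the IP 35.9% against 47.6%, and in the change of enrichment 55.6% against 40.6%.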
